A study of Mus musculus with 18 samples.

Results

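The transcripts examined here are those of the WAVE regulatory complex and of its relative N-WASP, 10 genes chosen by name from the 15329 genes listed in a hippocampal RNA sequencing table. All 10 were listed, in all 18 libraries. The members are the WAVE proteins (*Wasf1*, *Wasf2* and *Wasf3*, which encode WAVE1, WAVE2 and WAVE3), N-WASP (*Wasl*), the CYFIP subunits (*Cyfip1* and *Cyfip2*), the NAP1 subunit (*Nckap1*), the ABI subunits (*Abi1* and *Abi2*) and the small subunit HSPC300 (*Brk1*).

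Each library came from the hippocampus of 1 mouse of the C57BL/6J strain aged 8 to 10 weeks. WT mice and mice lacking the cyclin Y gene (*Ccny* KO mice) were each taken in 3 training states, which gives 6 groups of 3 mice. WT_Basal and KO_Basal mice were untrained, WT_OL and KO_OL mice had completed original learning of a hidden platform in the Morris water maze (MWM), and WT_RL and KO_RL mice had gone on to reversal learning, in which the platform was moved. Trained and untrained mice differed in the whole procedure, swimming and handling included, which cannot be told apart from learning. The way in which the *Ccny* allele was made is not given in the sources used here. The question asked of these libraries was how learning and the loss of cyclin Y alter the transcripts that govern actin in the hippocampus.

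The WAVE proteins and N-WASP switch on the Arp2/3 complex, the machine that starts a new actin filament as a branch on an old one. N-WASP is opened mainly by the GTPase Cdc42. A WAVE protein instead sits in a complex with 1 CYFIP, NAP1, 1 ABI and HSPC300, is held inactive there, and is released when the GTPase Rac binds the CYFIP subunit. In neurons branched actin of this kind shapes dendritic spines, the small heads that carry most excitatory synapses, and CYFIP proteins also bind the fragile X protein FMRP.

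The libraries held 29248557 to 37915576 reads on the listed genes (median 32801079), and the members were well covered: *Wasf2* had the fewest reads, 536 to 956 per library, and *Cyfip2* the most, 26447 to 50089. *Ccny* itself stood at 107 to 159 CPM (counts scaled to the depth of the library) in the 9 WT libraries and at 74 to 95.8 CPM in the 9 *Ccny* KO libraries, with no overlap, so that reads of the gene were reduced but present in the KO mice. The libraries differed in how their counts depended on the base composition of the transcript. This GC slope, the change in log2 level per 10 percentage points of G and C in a transcript, was -0.185 to -0.114 in the 6 untrained libraries and -0.016 to 0.208 in the 12 trained ones. Training and GC slope therefore cannot be told apart between groups, and the changes of the members between trained and untrained mice are given below as deposited and after a GC correction, in which the trend against GC content was removed from every library. WT_OL replicate 2 stood apart from the rest, with the highest GC slope, the lowest length slope (-0.220 log2 per doubling of transcript length, against -0.095 to 0.142 in the others) and the lowest median correlation with the other libraries (0.958). The GC content of the members' transcripts ran from 41% for *Abi1* and 42.6% for *Abi2*, through 43.7% for *Wasl*, 45.9% for *Nckap1* and 46.1% for *Cyfip1*, to 50.2% for *Wasf1*, *Wasf3* and *Brk1*, 51.8% for *Cyfip2* and 54.4% for *Wasf2*.

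**Figure D1:**
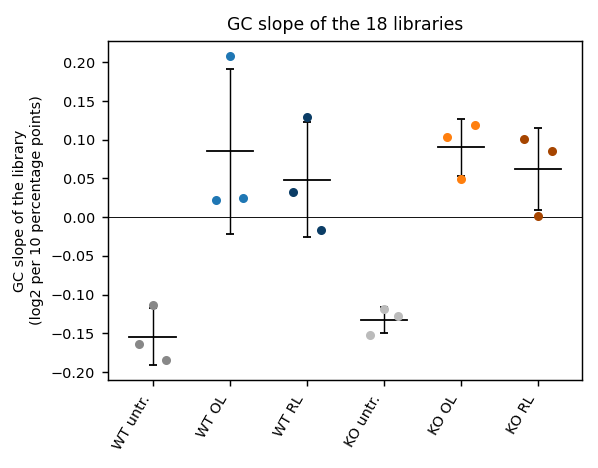
GC slope of each of the 18 libraries (log2 level per 10 percentage points of GC content), by group of 3 mice; points are libraries, the long bar is the mean and the error bar the SD. The 6 untrained libraries lie between -0.185 and -0.114 and the 12 trained ones between -0.016 and 0.208.

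Within the complex the subunits differed widely in transcript level. Per kilobase of exon, averaged over the 18 libraries, *Nckap1* was highest at 177 ± 17.7 CPM per kb (SD, n = 18), followed by *Cyfip2* at 153 ± 24.6, *Brk1* at 133 ± 15.8 and *Wasf1* at 118 ± 17.6. A lower tier held *Abi1* at 46.5 ± 5.86, *Abi2* at 25.5 ± 2.45 and *Wasl* at 24.5 ± 3.63 CPM per kb, and *Wasf3* (15.2 ± 1.62), *Cyfip1* (11.3 ± 1.01) and *Wasf2* (3.58 ± 0.603) were lowest. Some neighbours in this order were not kept apart by the spread over mice. *Cyfip2* exceeded *Brk1* in 11 of 18 libraries, *Brk1* exceeded *Wasf1* in 11 of 18 and *Abi2* exceeded *Wasl* in 13 of 18. The order of *Wasf3* above *Cyfip1*, seen in 18 of 18 libraries, held in 1 of 18 when the longest transcript was used as the length. One paralog supplied most of the WAVE and CYFIP transcripts. *Wasf1* made up 86.1% ± 2.71 of the per-kilobase level of the WAVE genes (SD, n = 18), *Wasf3* 11.3% ± 2.24 and *Wasf2* 2.65% ± 0.578, and *Cyfip2* made up 93% ± 0.605 of that of the CYFIP genes. The ABI pair was more even, with *Abi1* at 64.5% ± 2.5. With the longest transcript as the length the shares were 86.4% for *Wasf1*, 88.5% for *Cyfip2* and 59.3% for *Abi1*. Part of the *Cyfip1* exons (1316 bases) overlaps *Nipa2* on the other strand and part of the *Abi1* exons (194 bases) overlaps *Pdss1*, and the sources differ on whether the library kit kept the strand, so reads in those stretches could belong to either gene.

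The promoter windows of the members that passed the test in the pooled original learning comparison described below are shown first, since the results on training turn on these genes. Each window holds 300 bases around a RefSeq transcript start (GRCm38.p6), most of them before it, printed 5′ to 3′ on the strand of the gene. Of the 10 members, 7 had such a window; *Cyfip1*, *Nckap1* and *Abi2* had none in the set used. Capitals mark matches, on either strand, to a GC box (GGGCGG) or a CCAAT box (CCAAT). The *Cyfip2* window lies at chr11:46312309-46312608 (minus strand), the *Wasf2* window at chr4:133130383-133130682 (plus strand), the *Wasf3* window at chr5:146384756-146385055 (plus strand) and the *Abi1* window at chr2:23040147-23040446 (minus strand, 1 of 2 windows listed for this gene).
*Cyfip2*: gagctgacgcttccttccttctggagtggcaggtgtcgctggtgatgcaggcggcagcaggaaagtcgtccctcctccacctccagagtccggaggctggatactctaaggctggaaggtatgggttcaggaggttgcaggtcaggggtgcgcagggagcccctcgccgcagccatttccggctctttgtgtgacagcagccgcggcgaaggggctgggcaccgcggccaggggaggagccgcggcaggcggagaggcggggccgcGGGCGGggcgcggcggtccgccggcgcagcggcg
*Wasf2*: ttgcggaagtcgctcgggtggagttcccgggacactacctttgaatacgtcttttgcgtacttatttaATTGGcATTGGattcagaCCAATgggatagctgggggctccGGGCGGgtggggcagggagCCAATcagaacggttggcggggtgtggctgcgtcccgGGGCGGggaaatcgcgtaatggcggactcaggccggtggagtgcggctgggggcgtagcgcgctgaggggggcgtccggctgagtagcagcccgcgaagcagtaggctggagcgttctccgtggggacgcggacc
*Wasf3*: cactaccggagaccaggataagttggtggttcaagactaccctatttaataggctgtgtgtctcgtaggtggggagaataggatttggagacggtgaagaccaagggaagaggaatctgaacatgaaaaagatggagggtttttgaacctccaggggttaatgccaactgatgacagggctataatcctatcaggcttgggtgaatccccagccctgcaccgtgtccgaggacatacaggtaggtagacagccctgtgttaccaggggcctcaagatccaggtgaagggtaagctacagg
*Abi1*: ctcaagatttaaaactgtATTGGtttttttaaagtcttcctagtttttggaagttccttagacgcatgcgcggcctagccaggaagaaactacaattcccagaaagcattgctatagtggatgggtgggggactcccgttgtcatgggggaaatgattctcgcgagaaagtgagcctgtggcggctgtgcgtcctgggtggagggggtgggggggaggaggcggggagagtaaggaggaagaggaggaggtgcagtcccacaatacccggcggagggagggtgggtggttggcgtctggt
The *Wasf2* window held 2 GC boxes and 4 CCAAT boxes, the *Cyfip2* window 1 GC box at base 17 after the start, the *Abi1* window 1 CCAAT box and the *Wasf3* window neither. Over all 32851 promoters of this length a GC box was found in 35.7% and a CCAAT box in 37.4%. None of the windows of the 7 members held a cAMP response element (TGACGTCA, in 1.79% of all promoters), an AP-1 site (TGANTCA, 7.81%), an E-box (CACGTG, 7.15%), an EGR site (GCGTGGGCG, 0.612%) or a TATA box (TATAAA, 13.6%), which says only that these letters were not in the windows. The windows shown differed in base composition, from 70.7% G and C with 29 CG pairs for *Cyfip2* and 64.3% with 29 for *Wasf2* to 55% with 12 for *Abi1* and 50.7% with 5 for *Wasf3*, against a median of 52.7% with 7 over all promoters.

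Original learning in WT mice was accompanied by higher *Wasf2* and *Wasf3* and lower *Abi1* transcript levels. At an adjusted p under 0.05 (limma, over all 15329 genes), 2 of the 10 members were higher and 1 was lower in WT_OL than in WT_Basal mice, where 3.88% of all genes were higher and 5.62% were lower. The levels of 4 members did not overlap between the groups, against 28.3% of all genes. The median log2 fold change of the members was -0.09, and that of all genes lay between -0.01 and 0.01 in every comparison. In bulk tissue fewer cells of a type and less RNA per cell cannot be told apart. Each of the 3 lost its call in a fit on the 6 libraries compared alone (adjusted p = 0.112 to 0.127), where the spread was estimated from these mice only.

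*Wasf3*, the WAVE protein found mainly in brain, stood at 67.4, 70.3 and 69.0 CPM in WT_Basal mice and at 81.6, 94.3 and 84.8 CPM in WT_OL mice, so that all 3 trained mice lay above all 3 untrained mice. The log2 fold change was 0.33 ± 0.0729 (SE), adjusted p = 0.0106, and the call remained after GC correction at 0.31 (adjusted p = 0.0279). It was lost when GC and length were corrected together (adjusted p = 0.0595), kept without WT_OL replicate 2 (0.27, adjusted p = 0.0398), and lost with GC correction and without that library (0.25, adjusted p = 0.0872). *Wasf2*, the widely expressed WAVE protein, stood at 18.8, 17.9 and 17.3 CPM without training and at 21.3, 25.3 and 25.0 CPM after original learning, again without overlap. Its log2 fold change was 0.39 ± 0.111, adjusted p = 0.0382, but 0.28 after GC correction (adjusted p = 0.191), and the call was lost on leaving out any library of the 6 other than WT_OL replicate 1 (adjusted p up to 0.132).

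*Abi1*, whose product links WAVE to NAP1 and to the kinase Abl, stood at 213, 230 and 220 CPM in WT_Basal mice and at 170, 139 and 188 CPM in WT_OL mice. The groups did not overlap, and WT_OL replicate 2 was lowest. The log2 fold change was -0.43 ± 0.0917 (adjusted p = 0.0089) as deposited and -0.21 (adjusted p = 0.184) after GC correction. Without WT_OL replicate 2 it was -0.31 (adjusted p = 0.0278) as deposited and -0.14 (adjusted p = 0.419) after GC correction. *Wasl* also did not overlap, at 166, 177 and 172 CPM against 132, 84.3 and 163 CPM. It had the largest fold change of any member in any comparison of 2 groups, -0.49 ± 0.172, yet did not pass the test as deposited (adjusted p = 0.0835) or after GC correction (-0.35, adjusted p = 0.265), the WT_OL mice being spread from 84.3 to 163 CPM. The value depended on single libraries: it was -0.70 (adjusted p = 0.01) without WT_OL replicate 3, the mouse nearest the untrained level, and -0.23 (adjusted p = 0.328) without WT_OL replicate 2. *Wasf1*, the main WAVE protein of neurons, overlapped between the groups, with a log2 fold change of -0.29 (adjusted p = 0.253) as deposited and -0.31 (adjusted p = 0.346) after GC correction. Its value was -0.47 (adjusted p = 0.0368) without WT_OL replicate 3 and -0.10 (adjusted p = 0.749) without WT_OL replicate 2.

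In *Ccny* KO mice original learning was accompanied by higher *Cyfip2* and lower *Abi1*. These were 1 member higher and 1 lower, where 11.2% of all genes were higher and 12.3% were lower in KO_OL than in KO_Basal mice, and the levels of 8 members did not overlap, against 48.8% of all genes. The median log2 fold change of the members was 0.14. *Cyfip2*, the neuronal Rac-binding subunit, stood at 841, 893 and 925 CPM in KO_Basal mice and at 1296, 1161 and 1146 CPM in KO_OL mice, every trained mouse above every untrained one. The log2 fold change was 0.44 ± 0.121 (adjusted p = 0.0158), and 0.37 after GC correction (adjusted p = 0.0588). It lost the call without KO_Basal replicate 1 (adjusted p = 0.0656) or KO_OL replicate 1 (adjusted p = 0.071).

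*Abi1* stood at 204, 215 and 208 CPM in KO_Basal mice and at 187, 171 and 162 CPM in KO_OL mice, without overlap. Its log2 fold change of -0.27 ± 0.0917 (adjusted p = 0.0431) fell to -0.03 after GC correction (adjusted p = 0.811), and the call was kept in 1 of the 6 fits that left out a library, the one without KO_OL replicate 1 (adjusted p up to 0.159 in the others). *Cyfip1*, the other Rac-binding subunit, stood at 114, 127 and 125 CPM against 158, 128 and 142 CPM. It did not pass as deposited (0.22, adjusted p = 0.0826) and passed after GC correction (0.26, adjusted p = 0.0411). *Wasf2* (0.25, adjusted p = 0.116) and *Wasf3* (0.14, adjusted p = 0.167) did not pass in KO mice, although neither overlapped between the groups. After GC correction they were 0.16 (adjusted p = 0.323) and 0.11 (adjusted p = 0.304).

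**Figure D2:**
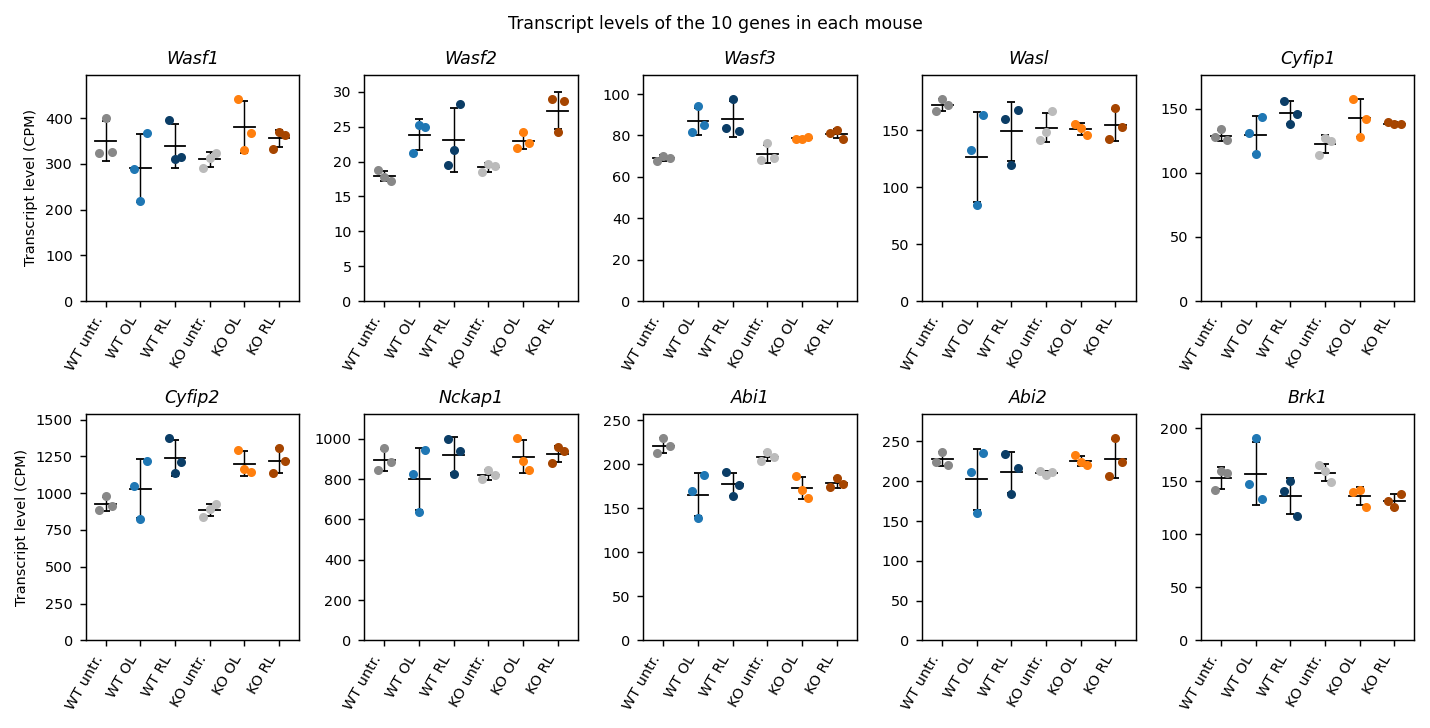
Transcript level (CPM, linear axes from 0) of each of the 10 genes in every mouse; points are mice, the long bar is the mean and the error bar the SD of 3 mice. *Abi1* lies lower in all 4 trained groups than in the untrained mice of the same genotype, and *Cyfip2* lies higher in WT_RL, KO_OL and KO_RL mice.

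After reversal learning the mice were again compared with the untrained mice, so these comparisons share their controls with those above. In WT_RL mice 2 members were higher and 1 was lower, where 8.28% of all genes were higher and 7.42% were lower. The levels of 5 members did not overlap, against 34.3% of all genes. The median log2 fold change of the members was 0.00. *Wasf3* stood at 83.6, 97.7 and 82.1 CPM in WT_RL mice, above the 67.4 to 70.3 CPM of the WT_Basal mice, with a log2 fold change of 0.34 ± 0.0729 (adjusted p = 0.00568) that kept its call after GC correction (0.31, adjusted p = 0.0156) and in all 6 fits that left out a library, and lost it when GC and length were corrected together (adjusted p = 0.0788). *Cyfip2* stood at 884, 983 and 912 CPM in WT_Basal mice and at 1374, 1135 and 1213 CPM in WT_RL mice, with 0.42 ± 0.121 (adjusted p = 0.0281) as deposited and 0.36 (adjusted p = 0.101) after GC correction. The call was lost without WT_Basal replicate 1 (adjusted p = 0.101), WT_Basal replicate 3 (adjusted p = 0.087) or WT_RL replicate 1 (adjusted p = 0.0995). *Abi1* stood at 191, 164 and 177 CPM in WT_RL mice, below all WT_Basal mice, with -0.32 ± 0.0917 (adjusted p = 0.0273) as deposited and -0.11 (adjusted p = 0.397) after GC correction. It kept the call in 1 of 6 fits that left out a library, the one without WT_RL replicate 1 (adjusted p up to 0.106 in the others).

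In KO_RL mice 2 members were higher and none was lower, where 11.6% of all genes were higher and 12% were lower. The levels of 8 members did not overlap, against 45.3% of all genes, and the median log2 fold change of the members was 0.18. *Wasf2* stood at 18.5, 19.7 and 19.3 CPM in KO_Basal mice and at 29.0, 24.3 and 28.6 CPM in KO_RL mice, every trained mouse above every untrained one. The log2 fold change was 0.49 ± 0.111 (adjusted p = 0.00537), and the call held after GC correction (0.41, adjusted p = 0.0171) and in all 6 fits that left out a library. *Cyfip2* stood at 1140, 1305 and 1220 CPM in KO_RL mice, also without overlap, with 0.46 ± 0.121 (adjusted p = 0.0118) as deposited and 0.41 (adjusted p = 0.0385) after GC correction. It lost the call without KO_Basal replicate 1 (adjusted p = 0.0557). With GC and length corrected together both *Wasf2* (adjusted p = 0.0936) and *Cyfip2* (adjusted p = 0.107) lost their calls. *Abi1* stood at 174, 185 and 178 CPM, below the 204 to 215 CPM of the KO_Basal mice, and did not pass the test as deposited (-0.22, adjusted p = 0.0912) or after GC correction (-0.02, adjusted p = 0.895).

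The trained mice of both genotypes were also compared with the untrained mice of both in a single contrast. For original learning 3 members were higher (*Wasf2*, *Wasf3* and *Cyfip2*) and 1 was lower (*Abi1*), where 13.4% of all genes were higher and 15.3% were lower. The log2 fold changes were 0.32 for *Wasf2* (adjusted p = 0.00618), 0.24 for *Wasf3* (adjusted p = 0.00277), 0.29 for *Cyfip2* (adjusted p = 0.019) and -0.35 for *Abi1* (adjusted p = 0.000828). The *Cyfip2* value was uneven between genotypes, at 0.437 in KO mice and 0.135 in WT mice. In WT mice it did not pass (adjusted p = 0.519, and 0.811 after GC correction) and the groups overlapped. After GC correction *Wasf3* alone of the 10 remained past the threshold (0.21, adjusted p = 0.00912), with *Wasf2* at adjusted p = 0.0577, *Cyfip2* at 0.1 and *Abi1* at 0.149. Without KO_OL replicate 1 *Cyfip2* fell just short (adjusted p = 0.0511).

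For the state after reversal learning 4 members were higher and 2 were lower, where 18% of all genes were higher and 17.4% were lower. *Cyfip2* rose by a log2 fold change of 0.44 ± 0.0855 (adjusted p = 0.000879), *Wasf2* by 0.41 ± 0.0788 (adjusted p = 0.00083), *Wasf3* by 0.26 ± 0.0516 (adjusted p = 0.00101) and *Cyfip1* by 0.18 ± 0.0614 (adjusted p = 0.0305). *Abi1* (-0.27, adjusted p = 0.00412) and *Brk1*, the smallest subunit (-0.22, adjusted p = 0.0435), were lower. After GC correction *Cyfip2* (0.38, adjusted p = 0.00556), *Wasf2* (0.32, adjusted p = 0.00514), *Wasf3* (0.23, adjusted p = 0.00304), *Cyfip1* (0.22, adjusted p = 0.0092) and *Brk1* (-0.25, adjusted p = 0.0251) passed and *Abi1* did not (-0.07, adjusted p = 0.391). With GC and length corrected together the calls of *Cyfip2* (adjusted p = 0.0105) and *Wasf2* (adjusted p = 0.0376) remained. Of the 12 fits that left out a library, *Brk1* was called in 3 and *Cyfip1* in 6 (adjusted p up to 0.111 and 0.0829), while the other 4 members were called in all 12. The changes were small throughout: the largest difference of a member between 2 groups, that of *Wasl* between WT_OL and WT_Basal mice, was 1.4-fold.

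**Figure D3:**
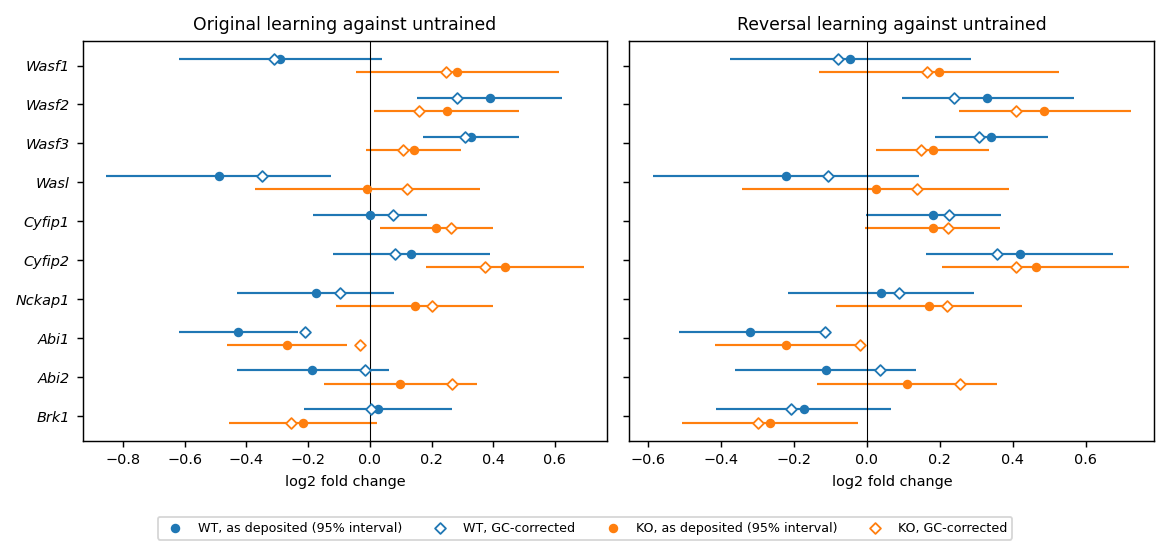
Log2 fold change of each gene between trained and untrained mice of the same genotype (WT blue, KO orange), with filled points and 95% intervals for the deposited values and open diamonds for the GC-corrected values. The diamonds of *Abi1* lie nearer 0 than its filled points, from -0.43 to -0.21 in WT mice after original learning, while those of *Wasf3* stay near theirs.

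The balance between paralogs was compared within each library, where the scaling of the library cancels, and is given as a description with no test. The ABI pair shifted in every trained group. The log2 CPM of *Abi2* minus that of *Abi1* was 0.004 to 0.074 in the 3 WT_Basal libraries and -0.043 to 0.060 in the 3 KO_Basal libraries. In trained mice it was 0.207 to 0.323 in WT_OL, 0.160 to 0.296 in WT_RL, 0.313 to 0.440 in KO_OL and 0.244 to 0.458 in KO_RL libraries, so all 12 trained libraries lay above all 6 untrained ones. How often other gene pairs separate trained from untrained libraries was not counted. Of single genes, 28.3% to 48.8% did not overlap in the 4 comparisons of trained with untrained mice of a genotype. These transcripts are close in GC content (41% and 42.6%) and differ in length (longest transcripts of 3403 and 5768 bases). After GC and length correction the difference between trained and untrained means was 0.19 in WT_OL, 0.09 in WT_RL, 0.20 in KO_OL and 0.14 in KO_RL mice, against 0.24, 0.21, 0.37 and 0.33 as deposited, and the trained libraries still did not overlap the untrained ones of their genotype in any of the 4 comparisons. As a share of the per-kilobase ABI level, *Abi1* was 67.3% ± 0.537 in WT_Basal, 63.5% ± 1.06 in WT_OL and 64.1% ± 1.22 in WT_RL mice, and 67.7% ± 0.786, 61.9% ± 1.05 and 62.5% ± 1.75 in the KO groups in the same order (SD, n = 3).

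The CYFIP pair moved the same way toward the neuronal paralog. *Cyfip2* exceeded *Cyfip1* by a mean log2 difference of 2.84 ± 0.044 in WT_Basal, 2.98 ± 0.119 in WT_OL and 3.08 ± 0.054 in WT_RL mice, and by 2.86 ± 0.043, 3.08 ± 0.089 and 3.14 ± 0.107 in KO_Basal, KO_OL and KO_RL mice (SD, n = 3). Trained and untrained libraries overlapped in the WT_OL comparison and in none of the other 3. After GC correction the shift was 0.13 in WT_RL, 0.11 in KO_OL and 0.19 in KO_RL mice, against 0.23, 0.22 and 0.28 as deposited, and it was 0.01 in WT_OL mice. Among the WAVE pairs, in WT_OL mice *Wasf1* exceeded *Wasf2* by 3.58 ± 0.414 and *Wasf3* by 1.72 ± 0.459, against 4.28 ± 0.190 and 2.34 ± 0.150 in WT_Basal mice, without overlap. In KO_OL mice the corresponding values, 4.04 ± 0.280 and 2.26 ± 0.211, overlapped those of KO_Basal mice, 4.02 ± 0.051 and 2.12 ± 0.099. The untrained KO mice lay below the untrained WT mice in both pairs without overlap, with mean differences of -0.264 for *Wasf2* and -0.215 for *Wasf3*. Both pairs share *Wasf1*, and *Wasf1*, *Wasf2* and *Wasf3* each overlapped between these groups (adjusted p = 0.994 each, limma). How often pairs of other genes separated in this way was not counted. After reversal learning the difference of *Wasf1* from *Wasf2* had changed by -0.391 in WT mice, with overlap, and by -0.310 in KO mice, without overlap. For *Wasf1* and *Wasf3* the change was -0.390 in WT_RL and 0.015 in KO_RL mice, both with overlap. After GC correction the KO_RL change for *Wasf2* was -0.244, with overlap, and after GC and length correction -0.064, also with overlap. The WT_OL shifts after GC correction were -0.595 for *Wasf2* and -0.619 for *Wasf3*, both without overlap. With GC and length corrected together they were -0.588, without overlap, and -0.611, with overlap. Whether these shifts differed between genotypes was not tested. The lowest WT_OL value of both pairs belonged to replicate 2, the library that stood apart, and without it the WT_OL shift was -0.46 in place of -0.70 for *Wasf2* and -0.37 in place of -0.62 for *Wasf3*.

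**Figure D4:**
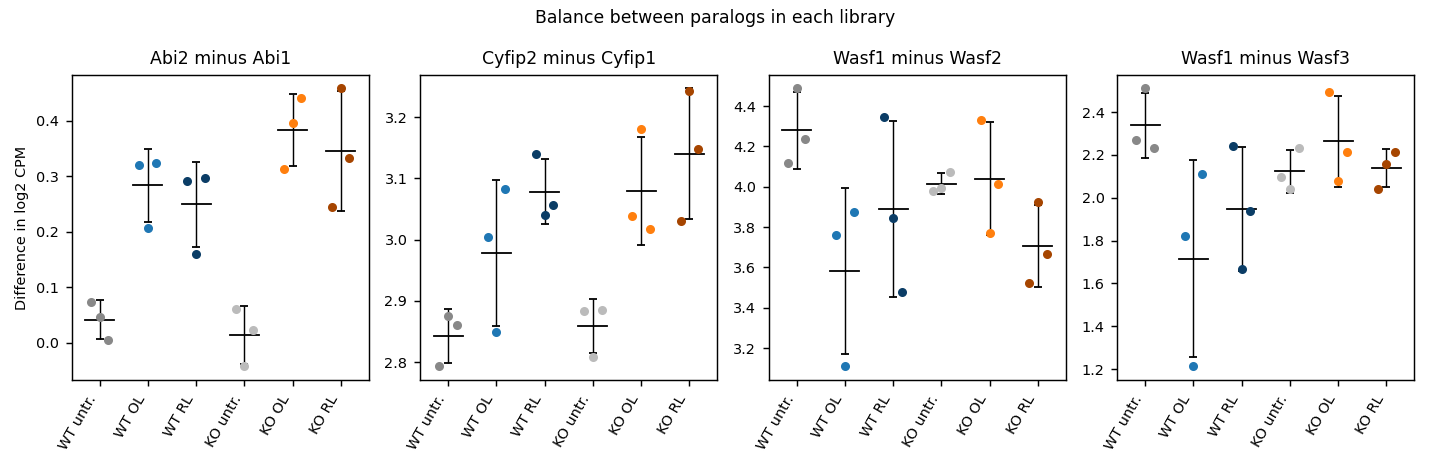
Difference in log2 CPM between paralogs within each library, by group; points are libraries, the long bar is the mean and the error bar the SD of 3 mice, and the axes do not start at 0. For *Abi2* minus *Abi1* all 12 trained libraries lie above 0.160 or at it and all 6 untrained ones at 0.074 or below.

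Summed levels of several cell type marker lists did not overlap between trained and untrained mice of a genotype, most of them in the KO mice. Single genes also separated more often in KO mice. Of all genes, 48.8% did not overlap in KO_OL and 45.3% in KO_RL mice, against 28.3% in WT_OL and 34.3% in WT_RL mice. The 5 CA1 pyramidal neuron markers, which belong to the labelled tissue, summed to 421 to 544 CPM in KO_Basal, 562 to 731 CPM in KO_OL and 545 to 706 CPM in KO_RL libraries, so that both trained KO groups lay above the untrained one, while the WT groups overlapped (505 to 636, 517 to 632 and 527 to 631 CPM). The summed level of 8 choroid plexus markers was 52.8 to 678 CPM in KO_Basal libraries and 2431 to 4689 CPM in KO_OL and 1359 to 5093 CPM in KO_RL libraries, while in WT mice the ranges overlapped (874 to 4397, 1892 to 3319 and 46.2 to 8518 CPM). The 8 microglial markers summed to 497 to 544 CPM in KO_Basal, 428 to 455 CPM in KO_OL and 389 to 501 CPM in KO_RL libraries, and the 6 endothelial markers to 211 to 233, 168 to 194 and 186 to 203 CPM. The 6 astrocyte markers were lower in KO_OL (2566 to 2654 CPM) than in KO_Basal libraries (2785 to 2930 CPM), with KO_RL libraries at 2427 to 2786 CPM. In WT mice the 5 dentate granule neuron markers were higher in WT_RL (352 to 416 CPM) than in WT_Basal libraries (307 to 342 CPM). Pituitary markers, 2 of 5 listed, were lower in WT_OL (at most 0.0593 CPM) than in WT_Basal libraries (0.0666 to 35.8 CPM), and lower in KO_RL (at most 0.0303 CPM) than in KO_Basal libraries (0.814 to 2.80 CPM). These sums reached the floor of the data. One read was 0.0318 to 0.0333 CPM in WT_Basal and 0.0297 to 0.0308 CPM in WT_OL libraries, so less than 1 read parted the WT ranges. The highest KO_RL value was that of 1 read. No marker of these lists was at 0 in all libraries. The part of these shifts in the changes of the members was not tested.

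From original to reversal learning no member passed the test in either genotype. Between WT_RL and WT_OL mice 0.261% of all genes passed and between KO_RL and KO_OL mice 0.0196%. At an unadjusted p under 0.05 there was 1 member in each comparison with limma, and 2 and 0 with voom, which also called none after adjustment. With limma 16.4% and 4.81% of all genes had an unadjusted p that low. The *Cyfip2* level of WT_RL mice passed only without WT_OL replicate 3 (log2 fold change 0.41, adjusted p = 0.0291).

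The loss of cyclin Y was not accompanied by a detected change in any member. No member was called between KO and WT mice without training (0.0196% of all genes called), after original learning (0.0652%), after reversal learning (0%) or over the 3 training states together (0.0326%). The count at an unadjusted p under 0.05 was 0, 1, 1 and 0 members with limma and 0, 2, 1 and 0 with voom. With limma 4%, 18%, 4.93% and 8.36% of all genes had an unadjusted p that low. Over the 3 training states every interval included 0. Some intervals reached as far as changes called with training, such as 0.18 for *Cyfip1* in the pooled reversal learning comparison. The 95% interval of the KO minus WT difference in log2 level was -0.11 to 0.11 for *Abi1*, -0.11 to 0.10 for *Cyfip1*, -0.10 to 0.20 for *Cyfip2* and -0.16 to 0.02 for *Wasf3*, and it was widest for *Wasf1* (-0.09 to 0.29) and *Wasl* (-0.15 to 0.28).

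Nor did the change with training differ between genotypes past the threshold. The tests of that difference called 0% of all genes and no member for original learning, for the change from untrained to reversal learning, and for the change from original to reversal learning. At an unadjusted p under 0.05 there were 1, 0 and 0 members with limma and 2, 0 and 1 with voom. With limma 12.4%, 4.99% and 7.98% of all genes had an unadjusted p that low. The largest difference was that of *Wasf1* in original learning. Its level went from 325, 401 and 325 CPM to 288, 218 and 367 CPM in WT mice and from 292, 314 and 325 CPM to 443, 331 and 367 CPM in KO mice. The trained KO mice lay above their untrained controls, whereas the WT groups overlapped. The difference between these changes was 0.57 ± 0.22 on the log2 scale (95% interval 0.11 to 1.04, adjusted p = 0.388). It was 0.76 (adjusted p = 0.0393) without WT_OL replicate 3 and 0.38 (adjusted p = 0.765) without WT_OL replicate 2. For *Wasl*, which differed between genotypes by 0.48 ± 0.244 (adjusted p = 0.407), the 95% interval began at -0.04 and so included 0, and the value was 0.22 (adjusted p = 0.81) without WT_OL replicate 2 and 0.69 (adjusted p = 0.0609) without WT_OL replicate 3.

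**Figure D5:**
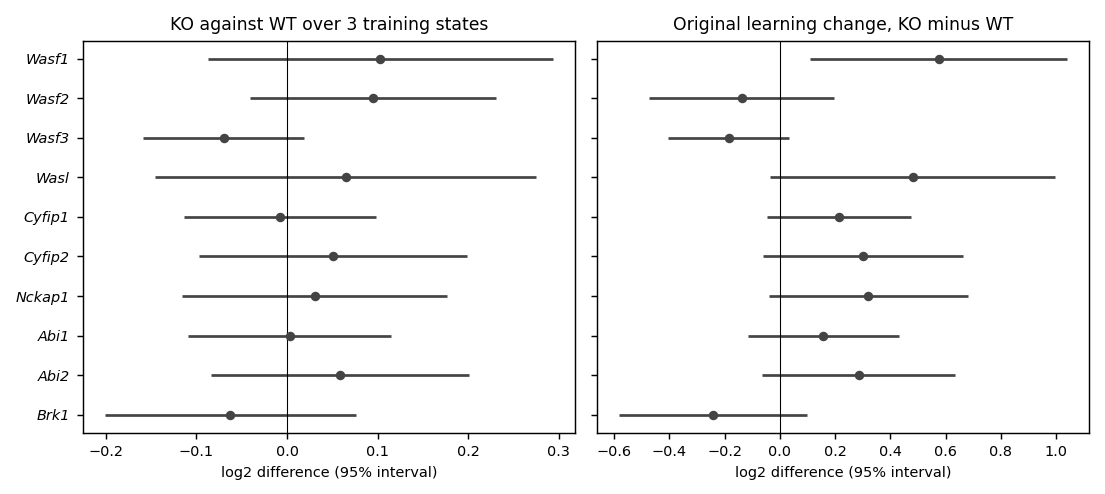
Left, difference in log2 level between *Ccny* KO and WT mice over the 3 training states; right, KO minus WT difference in the log2 change from untrained to original learning; points are estimates and lines 95% intervals for each gene. On the left every interval includes 0, and on the right that of *Wasf1* (0.11 to 1.04) does not, before adjustment over all genes.

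The genes that feed signals to the WAVE complex and N-WASP, or carry them on, were counted in a list of 103 genes, all of which were listed. In the pooled original learning comparison 15 were higher (14.6% of the list, against 13.4% of all genes) and 11 lower (10.7% against 15.3%). In the pooled comparison of reversal learning with untrained mice 28 were higher (27.2% against 18%) and 11 lower (10.7% against 17.4%). After GC correction 9 were higher (8.74% against 8.15% of all genes) and 4 lower (3.88% against 8.29%) for original learning, and 25 were higher (24.3% against 15.1%) and 11 lower (10.7% against 14%) for reversal learning. The median log2 fold change of the list was 0.04 and 0.08.

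The GTPase-activating proteins and chaperones, which turn Rac and Cdc42 off or hold them in the cytosol, had 7 of 12 genes higher and none lower after reversal learning (6 higher and 1 lower after GC correction), beside the 18% and 17.4% of all genes (15.1% and 14% after GC correction) that hold for each group of the list here. The GTPase exchange factors, which turn them on, had 7 of 20 higher and 1 lower (8 and 0). Among the adaptors that bind WAVE or N-WASP 7 of 19 were higher and 1 was lower (5 and 3), and among the kinases and partners of the complex 4 of 12 were higher and 2 lower (4 and 1). The GTPases themselves had none of 8 higher and 3 lower (0 and 3). The Arp2/3 complex had none of 10 higher and 3 lower (0 and 1), the inhibitors and branch regulators 3 of 12 higher and 1 lower (2 and 2), and neither the other nucleation-promoting factors (8 genes) nor the haematopoietic paralogs of the subunits (2 genes) had any called.

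In WT_OL mice, 3 genes of the list (2.91%) were called higher and 5 (4.85%) lower than in WT_Basal mice, which is below the 3.88% and 5.62% of all genes. The largest rises were *Prex1*, a Rac exchange factor (0.37 ± 0.0912, adjusted p = 0.0185), *Arhgdia* (0.29, adjusted p = 0.0362) and *Arhgap44*, a Rac GTPase-activating protein (0.26, adjusted p = 0.0372). The largest falls were *Fmr1*, which encodes FMRP, the partner of the CYFIP proteins (-0.62 ± 0.0996, adjusted p = 0.00169), *Fgd4*, a Cdc42 exchange factor (-0.50, adjusted p = 0.0283), and *Actr2*, the Arp2 subunit (-0.45, adjusted p = 0.0372). After GC correction only *Fmr1* of these 6 kept its call (-0.35, adjusted p = 0.017). *Fmr1* was 89.9 ± 1.9 CPM in WT_Basal and 58.8 ± 9.64 CPM in WT_OL mice (SD, n = 3), and its transcript has a GC content of 39.2%.

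In KO_OL mice 18 genes of the list (17.5%, against 11.2% of all genes) were called higher and 9 (8.74%, against 12.3%) lower than in KO_Basal mice. The largest rises were 3 adaptors: *Baiap2l1* (1.36 ± 0.445, adjusted p = 0.0363), from a low level of 0.766 ± 0.331 CPM to 3.5 ± 0.4 CPM, and the WASP-interacting proteins *Wipf2* (0.68, adjusted p = 0.000224) and *Wipf3* (0.58, adjusted p = 0.028). Of these *Wipf2* kept its call after GC correction (0.62, adjusted p = 0.00156). The largest falls were *Fmr1* (-0.56, adjusted p = 0.000979), the GTPase *Rac3* (-0.48, adjusted p = 0.0145) and *Fnbp1l*, which binds Cdc42 and N-WASP (-0.46, adjusted p = 0.0322). *Fmr1* and *Rac3* kept their calls after GC correction (adjusted p = 0.0324 and 0.00357), and *Fnbp1l*, with a GC content of 34%, was then 0.11 (adjusted p = 0.617).

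In WT_RL mice 12 genes (11.7%, against 8.28% of all genes) were called higher and 4 (3.88%, against 7.42%) lower than in WT_Basal mice. The largest rises were *Ank1*, an ankyrin (0.68, adjusted p = 0.00411), *Wipf2* (0.56, adjusted p = 0.00178) and *Itsn1*, a Cdc42 exchange factor that binds N-WASP (0.48, adjusted p = 0.000965), and all 3 kept their calls after GC correction (adjusted p = 0.0323, 0.00894 and 0.00487). The largest falls were *Fmr1* (-0.52, adjusted p = 0.0028), *Fgd4* (-0.46, adjusted p = 0.0299) and *Cdc42* (-0.30, adjusted p = 0.00636), of which *Fmr1* kept its call (adjusted p = 0.0439). In KO_RL mice 19 (18.4%, against 11.6% of all genes) were called higher and 8 (7.77%, against 12%) lower than in KO_Basal mice. The largest rises were *Bcr*, a Rac GTPase-activating protein (0.67, adjusted p = 1.9e-05), *Wipf2* (0.64, adjusted p = 0.000361) and *Wipf3* (0.63, adjusted p = 0.0178), and *Wipf3* lost its call after GC correction (adjusted p = 0.0537). The largest falls were *Rac3* (-0.67, adjusted p = 0.00177), *Fmr1* (-0.52, adjusted p = 0.00162) and *Arpc3*, an Arp2/3 subunit (-0.45, adjusted p = 0.00478), and all 3 kept their calls (adjusted p = 0.000546, 0.0242 and 0.00522). *Rac3* was 26.4 ± 2.17 CPM in KO_Basal and 16.1 ± 0.82 CPM in KO_RL mice (SD, n = 3).

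The genes whose levels followed those of the WAVE proteins and N-WASP most closely are given as a description over the 18 libraries. The libraries differed in training state, depth and GC slope, and the part of these differences in the correlations was not tested. Among genes with a mean of 10 CPM or more, *Wasf1* was most like *Prkce* (Pearson r = 0.959), *Slc24a3* (0.944) and *Ywhaz* (0.943), and *Wasl* most like *Bmpr2*, *Naa15* and *Pafah1b1* (0.971 each). *Wasf2* was most like *Tln1*, which encodes talin (0.914), *Slc2a1* (0.874) and *Nfkb1* (0.873), and *Wasf3* most like *C330006A16Rik* (0.914), *Rabl6* (0.913) and *AI464131* (0.907). Between members, *Wasf1* ran closest with *Nckap1* (0.908) and *Abi2* (0.826), and *Wasl* with *Abi2* (0.896). Among the WAVE genes r was -0.082 for *Wasf1* and *Wasf2*, -0.241 for *Wasf1* and *Wasf3* and 0.573 for *Wasf2* and *Wasf3*, and *Wasf3* ran against *Abi1* (-0.809).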

How the data were processed

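Hippocampal poly(A) RNA of 18 mice was sequenced by the authors as 100-base paired reads and, per the methods and the submitters' processing notes, aligned to mm10 with STAR 2.5.1 and scaled with edgeR 3.12.1 (TMM) under R 3.3.0. The deposited values are log2 CPM. The values behaved as log2(CPM + 1), although the methods describe CPM floored at 1, and every value equalled a whole number of reads within 0.1 read, so depth was read from the steps. How reads were counted, strand included, is not given consistently in the sources used here.

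Levels were tested with limma 3.58.1 (R 4.3.3; variance trend, 6 group means over all 18 libraries, Benjamini-Hochberg adjustment over 15329 genes, threshold 0.05), a moderated test that was checked on simulated data. The simulated libraries had the same spread in all groups and no GC trend, so that check does not cover unequal spread or GC slopes. Fold changes are on the log2(CPM + 1) scale. The study's methods do not name their test. The GC and length corrections removed a loess trend (span 0.3) from each library. The trend was against the GC content or the length of the longest GENCODE M21 transcript of each gene. The alternatives were 12 planned and 3 added after seeing the data, besides leaving out each of the 18 libraries. The members, the 103 pathway genes, the marker lists and the tests were chosen with earlier results of these data known. Named genes are all 10 members, and in each comparison at most the 3 largest called rises and falls of the pathway list, and the 3 genes most correlated with each WAVE gene and *Wasl*. Library weights came from limma (gene by gene). Nothing states whether the mice of a group were separate cohorts, so p-values measure the spread between these mice. No proteins were compared here.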

Additional observations from a re-analysis of the deposited data

How the results depend on the processing

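Of the 20 changes of a member that passed the threshold, none turned its direction in any of the 480 refits, and 94 of these refits no longer passed. The number of members called stayed within 1.5 times the reported number in 318 of 356 refits. These include the refits of comparisons in which no member was called, where 0 again was scored as unchanged. The 318 are therefore not a measure of stability for the comparisons with called members alone. The GC correction reduced the number from 3 to 1 for WT_OL, from 2 to 1 for KO_OL and from 3 to 1 for WT_RL mice against their untrained controls, and from 4 to 1 for original learning over both genotypes. The share of all genes called fell as well. For WT_OL it went from 3.88% to 1.27% higher and from 5.62% to 0.979% lower. For KO_OL it went from 11.2% to 7.63% and from 12.3% to 7.65%. For WT_RL it went from 8.28% to 4.44% and from 7.42% to 3.31%. For original learning over both genotypes it went from 13.4% to 8.15% and from 15.3% to 8.29%. For KO_OL mice both deposited calls, *Cyfip2* and *Abi1*, were lost, and the 1 member called was *Cyfip1*, which had not passed as deposited. GC and length correction together, chosen after seeing the data, left 0, 0, 0 and 0 in the comparisons of WT_OL, KO_OL, WT_RL and KO_RL mice with untrained mice, 0 for original learning and 2 for reversal learning over both genotypes. The GC correction without the library that stood apart, WT_OL replicate 2, also chosen after seeing the data, gave 0 for WT_OL, 4 for KO_OL and 5 for KO_RL mice against untrained mice. A fit on the libraries compared alone gave 0 for WT_OL, 4 for KO_OL and 4 for KO_RL mice. Library weights gave 5, 5 and 6 for the same 3 comparisons, 1 for KO_OL against WT_OL mice and 1 for the genotype difference in original learning. The weights of WT_OL replicates 1, 2 and 3 were 7.03, 0.208 and 0.381, so the weighted WT_OL mean rested mainly on replicate 1. A fit without the variance trend gave 1 for KO_OL mice. The cause of these shifts was not tested. For the other refits, here and below, the share of all genes called is not given.

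Leaving out a library gave 0 to 2 members for KO_OL, 1 to 3 for WT_RL and 1 to 2 for KO_RL mice against untrained mice, 0 to 1 for WT_RL against WT_OL mice, 0 to 3 for KO_OL against WT_OL mice and 0 to 1 for the genotype difference in original learning. The highest value of each of the last 3 came without WT_OL replicate 3. The count for KO_OL mice was 0 without KO_Basal replicate 1.

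Replicate numbers are shared between groups and were not treated as pairs in the reported fits. Over 45 pairs of same-numbered libraries the correlation of their deviations from the group means ran from -0.691 to 0.700 (median 0.005), and 13 were over 0.1. With 3 libraries per group these values showed no general pairing but cannot exclude shared cohorts. With the replicate block 1 member was called for KO_OL mice, and with the GC correction and the replicate block 1 each for WT_OL, KO_OL and WT_RL mice and 1 for original learning over both genotypes. The least covered member, *Wasf2*, had 536 reads or more in every library, and with 3 mice in a group the spread between mice limited the precision.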
